A study of Arabidopsis thaliana with 4 samples.

Results

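The circadian clock of Arabidopsis thaliana was followed through 10 probe sets of the ATH1 array, out of 22810 on the array. They stand for CCA1, LHY, PRR9, PRR7, PRR5, TOC1, GI, LUX, ELF4 and CCL, and were taken from a list of clock genes by probe set and name. The platform annotation used here names 2 of them, GI and CCL. The names of the other 8 are those of that list, and all 10 names pair with a locus in the reference annotation. Total RNA from inflorescences of mixed stages was hybridized to 4 arrays, 2 from wild-type Col-0 and 2 from xrn4-5, a mutant allele of XRN4 in the Col-0 background. XRN4 is an exoribonuclease of the cytoplasm that digests decapped transcripts in the 5′ to 3′ direction. All plants grew in long days of 16 h light and 8 h dark at 21 °C and received no other treatment in the labels. The titles number the samples of each genotype 1 and 2. The sources used here give neither the meaning of a number nor the age of the plants or the hour of harvest, and they do not say whether samples came from plants grown apart. Each p-value below therefore covers the spread among these 4 samples only, and part of that spread can be technical.

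The plant clock is a set of interlocked repressors whose transcripts peak in turn through the day. CCA1 and LHY, MYB-type transcription factors, peak around dawn and repress evening genes. The pseudo-response regulators PRR9, PRR7 and PRR5 follow one another from morning to afternoon and repress CCA1 and LHY, and TOC1, a further member of that family, peaks in the evening. GI, a large plant-specific protein of the afternoon and evening, stabilizes the F-box photoreceptor ZTL and promotes flowering in long days. LUX and ELF4 belong, with ELF3, to the evening complex, which represses transcription at night. CCL is a clock-controlled output gene whose unstable transcript is degraded at different rates at different times of day. In wild-type plants these levels depend on the hour of the day.

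Values are intensities on a linear scale, scaled by the authors before deposit. Array medians lay between 239.6 and 248 and lower quartiles between 68.7 and 73.3. Differences are on the scale of log2(intensity + 32), which understates those of dim probe sets, and fold differences are these values turned back from log2. Each difference was tested with limma over 13647 probe sets, after the dimmest 40% had been left out, and called where the Benjamini-Hochberg adjusted p was under 0.05. All 10 clock probe sets were bright enough on average over the 4 arrays to be tested. ELF4 ranked at percentiles 21.1 and 19.8 in the Col-0 and xrn4-5 samples numbered 1. PRR9 ranked at 27.1 and 26.1 in those numbered 2. PRR5 ranked at 23.7 in Col-0 sample 1 and at 40.4 in xrn4-5 sample 1. ELF4, PRR9 and PRR5 thus passed the filter through the number where they were bright, so their calls between numbers rest partly on that filter. Genotypes were compared in a fit with no other term, and sample numbers in a fit that also held the genotype. Levels of different probe sets cannot be set against each other. In a whole inflorescence, fewer cells of a type and less RNA per cell cannot be told apart.

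Clock transcripts had larger differences between the samples numbered 1 and those numbered 2, in both genotypes, than between xrn4-5 and Col-0. Of the 10 probe sets, 8 were called between the numbers, 3 lower in sample 2 (CCA1, LHY, PRR9) and 5 higher (PRR5, TOC1, LUX, ELF4, CCL), while 0 were called between the genotypes. Between the numbers, 2.36% of all tested probe sets were called, 1.27% higher and 1.09% lower in sample 2. Between the genotypes 0.00733% were called, in a fit of another form, so that these shares cannot be set against each other. In fits with no second term, 5 of all tested probe sets were called between numbers and 1 between genotypes. With both terms in the fit, whose prior is poorly set, 322 were called between numbers and 131 between genotypes. In that fit 0 of the 10 clock probe sets were called between genotypes. The list was drawn up with earlier results of these data known, so its count is no independent evidence. At an unadjusted limma p under 0.05 the counts were 9 of 10 for the numbers, against 13.8% of all tested probe sets, and 1 of 10 for the genotypes, against 9.33%. The median size of the log2 difference over the 10 was 1.37 between numbers and 0.42 between genotypes, beside 0.13 and 0.14 over all tested probe sets. In 9 of the 10 the fitted difference between numbers was the larger, with GI as the exception. Within xrn4-5 alone the differences between numbers of CCA1 and LHY were -0.66 and -0.68. These were smaller in size than their fitted genotype differences of -0.80 and -0.90. The calls between numbers depend on the fit, whose 1 residual degree of freedom sets its prior poorly: on simulated arrays it made more false calls than its threshold allows, so its adjusted p-values below may be too small and its 95% intervals too narrow. With the prior degrees of freedom of the genotype fit, a setting chosen after seeing the data, 0 of the 10 were called, and the lowest limma adjusted p was 0.0710, for ELF4. With dim probe sets kept, 0 of the 10 were called, and without the genotype term 1 was, ELF4.

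**Figure D1:**
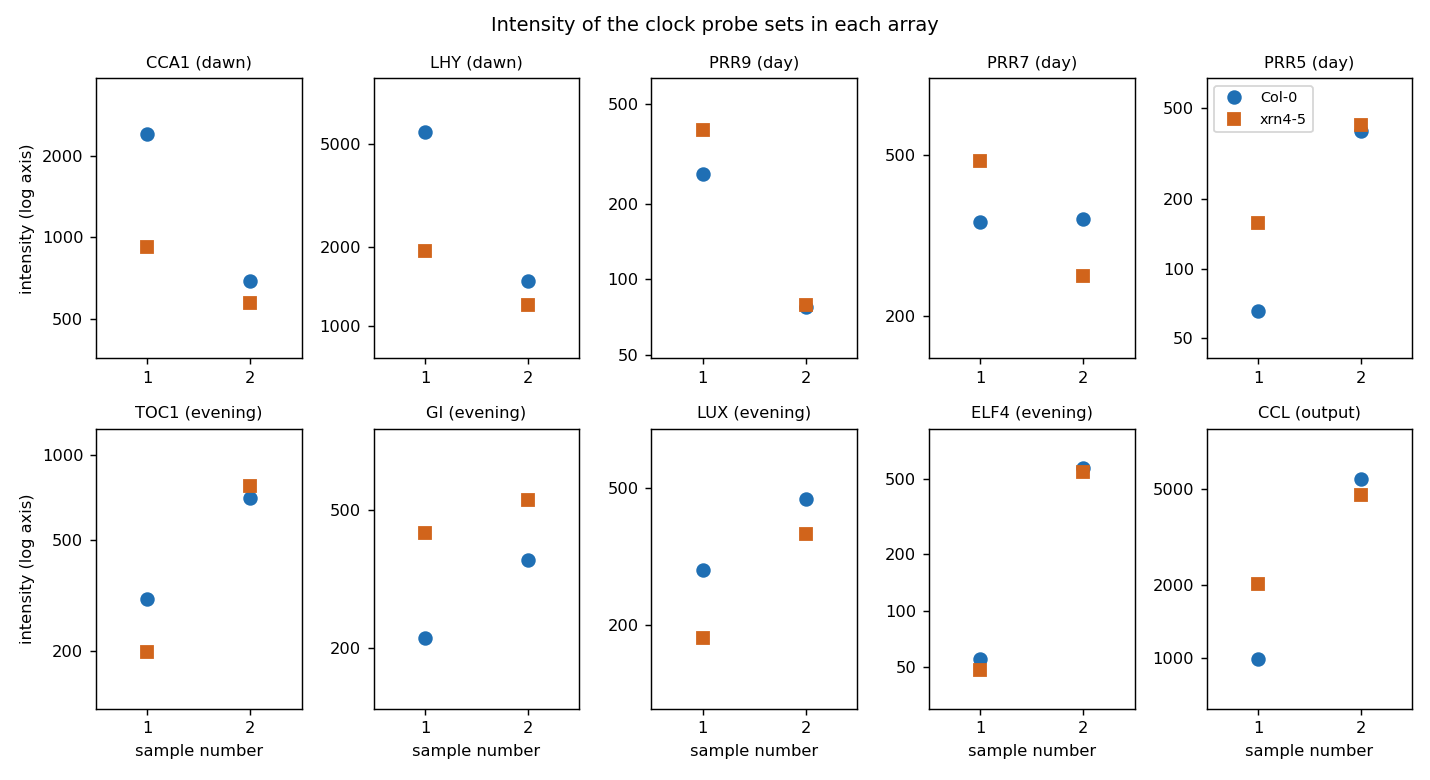
Intensity (log axis) of each clock probe set in the 4 arrays, by sample number on the horizontal axis, with Col-0 as circles and xrn4-5 as squares, 1 point per array. In 8 of the 10 panels both samples numbered 1 lie on one side of both samples numbered 2; PRR7 and GI are the exceptions.

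The dawn genes were lower in the samples numbered 2. The signal of CCA1 (266719_at, AT2G46830) was 2408 in Col-0 sample 1, 690.5 in Col-0 sample 2, 924 in xrn4-5 sample 1 and 575 in xrn4-5 sample 2. Col-0 sample 1 stood far above the other 3 arrays, and xrn4-5 sample 1 came next, so the numbers did not overlap. Sample 1 was 2.31-fold higher, with a 95% interval from 1.61 to 3.31 (limma adjusted p = 0.0359). LHY (261569_at, AT1G01060), the close relative of CCA1, gave 5550 and 1491 in Col-0 samples 1 and 2, and 1945 and 1204 in xrn4-5 samples 1 and 2. Its 4 arrays fell in the same order as those of CCA1. Sample 1 was 2.42-fold higher (95% interval 1.66 to 3.53, limma adjusted p = 0.0343). Within Col-0 the log2 differences of sample 2 minus sample 1 were -1.76 for CCA1 and -1.87 for LHY, and within xrn4-5 they were -0.66 and -0.68. In both genes the difference was thus widest where Col-0 sample 1 entered it. Both calls ended with quantile normalization (limma adjusted p = 0.0524 and 0.0559), with median centring and without the variance trend. They also ended with dim probe sets kept and with the prior degrees of freedom of the genotype fit. Without the genotype term both ended too (limma adjusted p = 0.51 and 0.52).

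Among the genes of the day, PRR9 was lower and PRR5 higher in the samples numbered 2. PRR9 (266720_s_at, AT2G46790), the morning member of its family, gave 262 and 77.5 in Col-0 samples 1 and 2 and 394 and 78.9 in xrn4-5 samples 1 and 2. Its highest array was xrn4-5 sample 1, and both arrays numbered 2 were close to the lower quartile of their arrays. Sample 1 was 3.21-fold higher (95% interval 2.35 to 4.40, limma adjusted p = 0.00825). PRR5 (249741_at, AT5G24470), the afternoon member, ran the other way, with 65.4 and 397.5 in Col-0 samples 1 and 2 and 158 and 418 in xrn4-5 samples 1 and 2. Col-0 sample 1 was lowest, xrn4-5 sample 1 lay between, and the samples numbered 2 were nearly equal. Sample 2 was 3.23-fold higher (95% interval 2.25 to 4.63, limma adjusted p = 0.0128).

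PRR7 (250971_at, AT5G02810), which peaks between those of PRR9 and PRR5, was not called. It gave 340 and 346 in Col-0 samples 1 and 2, and 483 and 251 in xrn4-5 samples 1 and 2. The Col-0 arrays lay side by side between the xrn4-5 arrays, so the numbers overlapped. The log2 difference of sample 2 minus sample 1 was -0.42, with a 95% interval from -0.90 to 0.06 (limma adjusted p = 0.443). The suffix _s_at of the PRR9 and LUX probe sets marks probes that match more than 1 transcript, so that their signals may include a related gene.

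Of the 4 evening genes, TOC1, LUX and ELF4 were called higher in the samples numbered 2 and GI was not called, and ELF4 had the widest difference of the 10. ELF4 (267364_at, AT2G40080), a subunit of the evening complex, gave 55.4 and 572 in Col-0 samples 1 and 2 and 48.3 and 545 in xrn4-5 samples 1 and 2. The genotypes were nearly equal at each number. On the linear scale sample 2 exceeded sample 1 by 10.3-fold in Col-0 and 11.3-fold in xrn4-5. On the log scale the fit gave 7.05-fold (95% interval 5.40 to 9.19, limma adjusted p = 0.00101). In the samples numbered 1 the signal ranked at percentiles 21.1 and 19.8 of its arrays, and in those numbered 2 at 73.6 and 72.0. By size of the difference between numbers ELF4 was number 3 of all 13647 tested probe sets.

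TOC1 (247525_at, AT5G61380), the repressor of CCA1 and LHY in the evening, gave 308 and 707 in Col-0 samples 1 and 2 and 199 and 776.5 in xrn4-5 samples 1 and 2. Here xrn4-5 sample 1 was the lowest array, below Col-0 sample 1. Sample 2 was 2.76-fold higher (95% interval 2.07 to 3.67, limma adjusted p = 0.00979). LUX (252475_s_at, AT3G46640), the DNA-binding subunit of the evening complex, gave 288.5 and 462 in Col-0 samples 1 and 2, and 182 and 368 in xrn4-5 samples 1 and 2. As with TOC1, its lowest array was xrn4-5 sample 1. LUX was 1.70-fold higher in sample 2 (95% interval 1.33 to 2.16, limma adjusted p = 0.0445), the call nearest to the threshold. This call ended in all the settings named above for CCA1 and LHY and with a pseudocount of 1.

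GI (264211_at, AT1G22770) was the 1 member whose genotypes did not overlap. Its signal was 214 and 360 in Col-0 samples 1 and 2 and 431 and 537 in xrn4-5 samples 1 and 2. The lower of the xrn4-5 arrays lay above the higher of the Col-0 arrays, whereas the numbers overlapped. Sample 2 was 1.40-fold higher than sample 1 (95% interval 1.10 to 1.78, limma unadjusted p = 0.0127, adjusted p = 0.185). CCL (257832_at, AT3G26740), the output gene, gave 988 and 5500 in Col-0 samples 1 and 2, and 2011 and 4715 in xrn4-5 samples 1 and 2. It shared the order of PRR5 among the arrays numbered 1, with Col-0 lowest and xrn4-5 next. Sample 2 was 3.55-fold higher (95% interval 2.42 to 5.20, limma adjusted p = 0.0118).

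**Figure D2:**
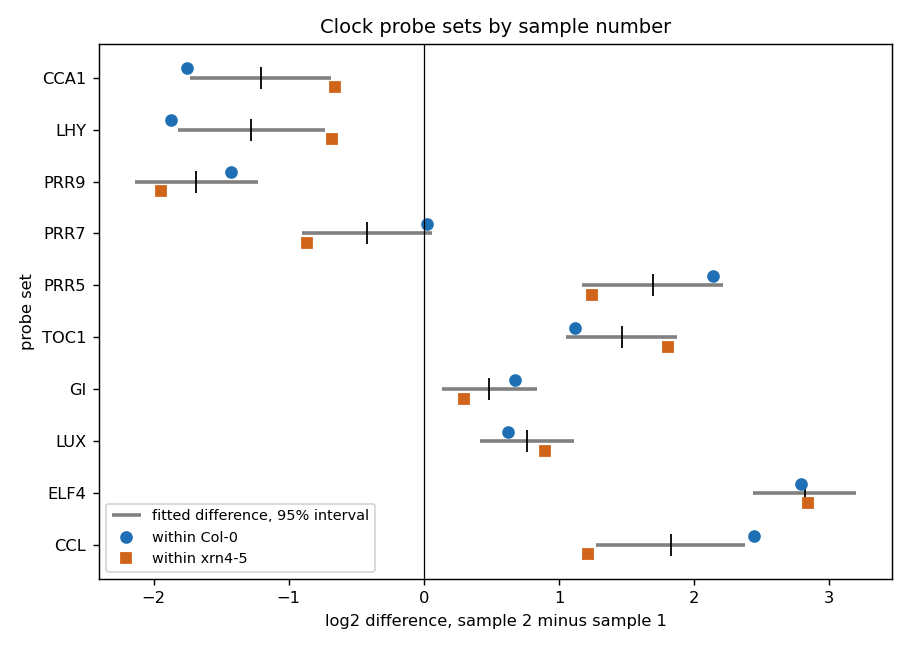
Log2 difference of sample 2 minus sample 1 for each clock probe set, within Col-0 (circles) and within xrn4-5 (squares), with the fitted difference as a tick and its 95% interval as a grey line. CCA1, LHY and PRR9 lie left of 0 and PRR5, TOC1, GI, LUX, ELF4 and CCL right of 0 in both genotypes, while PRR7 is at 0.023 in Col-0 and -0.87 in xrn4-5.

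Within each genotype the number stands for 1 array, so these differences are values with no test. A difference of at least 2-fold between sample 2 and sample 1 was seen in 7 of the 10 probe sets within Col-0, against 1.8% of all tested probe sets, and in 5 of the 10 within xrn4-5, against 0.865%. It was seen in both genotypes and in the same direction in 5 of the 10 (PRR9, PRR5, TOC1, ELF4, CCL), against 0.396% of all tested probe sets. The direction was the same in both genotypes for 9 of the 10, against 59% of all tested. The numbers did not overlap in 8 of the 10, a looser criterion that 36.9% of all tested probe sets met. The difference was larger in Col-0 for 5 members (CCA1, LHY, PRR5, GI, CCL) and larger in xrn4-5 for the other 5, where it was larger in Col-0 for 52.8% of all tested probe sets.

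**Figure D3:**
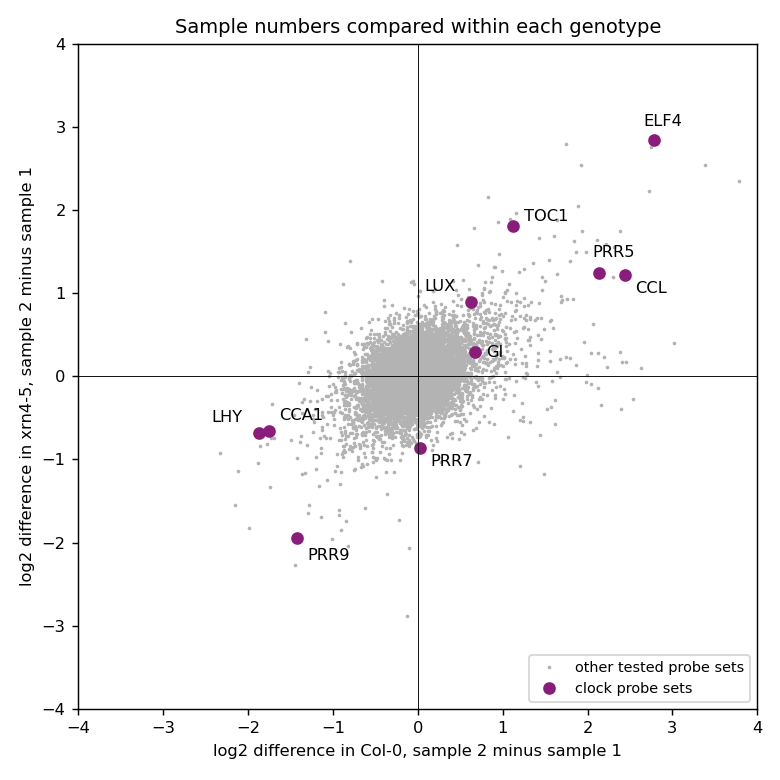
Log2 difference of sample 2 minus sample 1 in Col-0 (horizontal) against that in xrn4-5 (vertical) for the 13647 tested probe sets, with the 10 clock probe sets named. ELF4, at 2.79 and 2.84, and PRR9, at -1.43 and -1.94, lie far from the bulk of grey points, and GI lies near its edge.

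Set side by side, the arrays numbered 1 differed from each other as well. After each probe set was centred on its mean over the 4 arrays, the 2 dawn genes averaged 1.33 in Col-0 sample 1, -0.09 in xrn4-5 sample 1, -0.48 in Col-0 sample 2 and -0.76 in xrn4-5 sample 2. The evening genes TOC1, LUX and ELF4 averaged -0.63 and -1.05 in Col-0 and xrn4-5 sample 1, and 0.88 and 0.80 in the samples numbered 2. Col-0 sample 1 thus had the highest dawn signals and the lowest PRR5, GI and CCL, while xrn4-5 sample 1 had the highest PRR9 and PRR7 and the lowest TOC1, LUX and ELF4. The samples numbered 2 shared high evening and low dawn signals. The evening genes were grouped here without GI after its values had been seen. Whether the arrays differed in hour of harvest was not tested, because no hour is given to set these levels against.

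**Figure D4:**
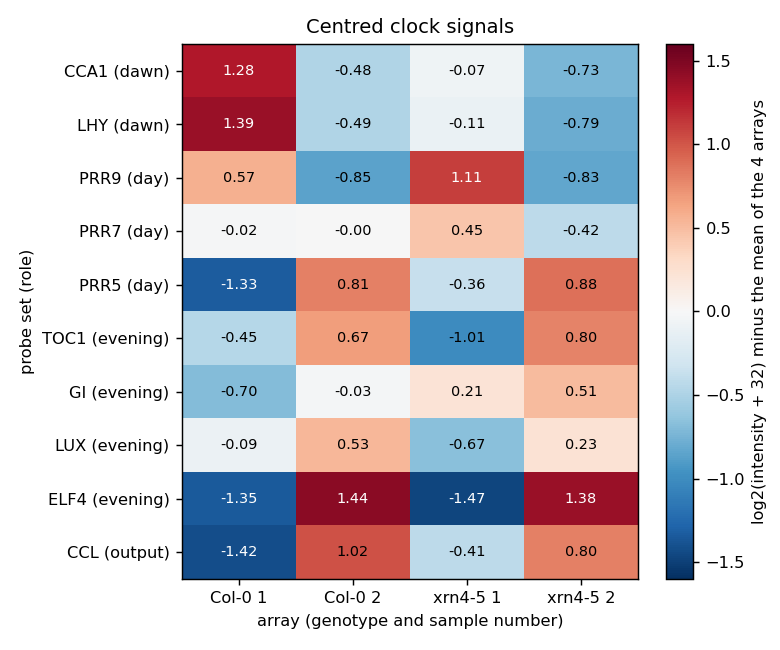
Signals of the clock probe sets on the scale of log2(intensity + 32), each minus its mean over the 4 arrays, with arrays as columns, genes from dawn to evening as rows and the value printed in each cell. Col-0 sample 1 is highest for LHY, at 1.39, and at -1.35 for ELF4, and the samples numbered 2 are lowest for PRR9, at -0.85 in Col-0 and -0.83 in xrn4-5, and highest for ELF4, at 1.44 and 1.38.

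Between the genotypes no clock gene was called. Estimates were higher in xrn4-5 for 5 of the 10 and lower for the other 5. For GI the log2 difference of xrn4-5 minus Col-0 was 0.72, with a 95% interval from 0.11 to 1.34 (limma unadjusted p = 0.0286, adjusted p = 0.495). Among all tested probe sets, 41.4% had genotypes that did not overlap. The mean signal of CCA1 in xrn4-5 was 749.6 ± 247 and that in Col-0 was 1549 ± 1215 (SD, n = 2 each), a log2 difference of -0.80 with a 95% interval from -2.20 to 0.60 (limma adjusted p = 0.718). For LHY the means were 1574 ± 524 and 3520 ± 2870, a log2 difference of -0.90 with an interval from -2.38 to 0.58 (limma adjusted p = 0.697). Without Col-0 sample 1 these differences were 0.08 and 0.04. The other 7 genes had log2 differences from -0.44 (LUX) to 0.52 (PRR5), with limma adjusted p-values from 0.738 to 0.986. The interval of ELF4 reached from -3.03 to 2.84 in this fit, which holds no term for the number. Within the numbers ELF4 differed by -0.12 and -0.07 between the genotypes.

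Genotype differences were larger within the samples numbered 1 than within those numbered 2 for all 10 clock probe sets, which was so for 48% of all tested probe sets. The difference of 10 genes measured on the same 4 arrays is not 10 independent observations. A difference of at least 2-fold was seen for 3 of the 10 within sample 1 (CCA1, LHY, CCL), against 1.14% of all tested, and for 0 of the 10 within sample 2, against 0.887%. CCA1 differed by -1.35 and LHY by -1.50 on the log2 scale within sample 1, but by -0.25 and -0.30 within sample 2. PRR5 differed by 0.97 and 0.07, and CCL by 1.00 and -0.22. GI kept its direction, with 0.91 within sample 1 and 0.54 within sample 2, as did LUX with -0.58 and -0.31. CCA1, LHY, PRR9, PRR5 and ELF4 kept theirs too. Directions were opposite for 3 of the 10 (PRR7, TOC1, CCL), against 38% of all tested probe sets.

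**Figure D5:**
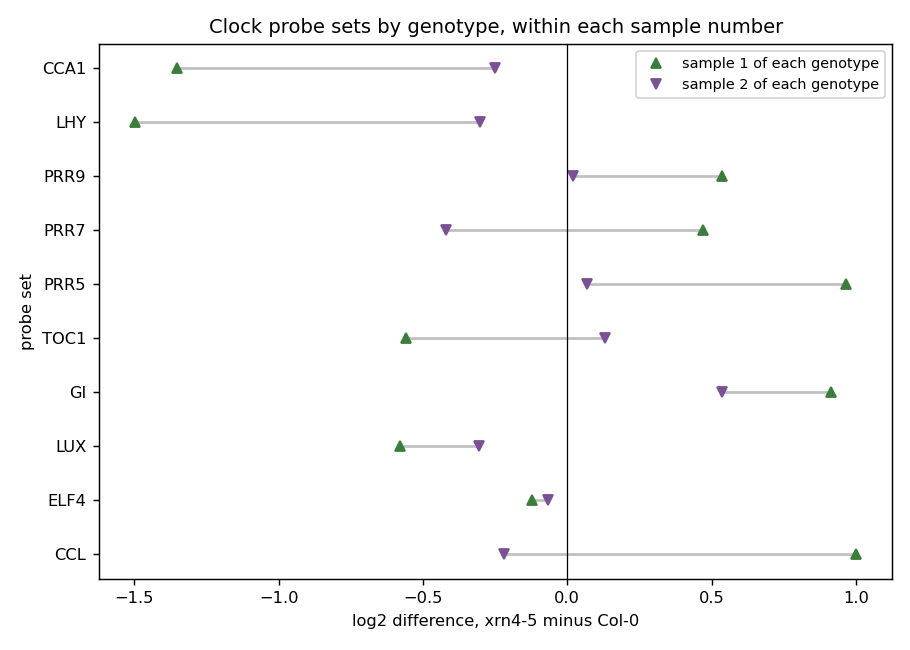
Log2 difference of xrn4-5 minus Col-0 for each clock probe set, within the samples numbered 1 (upward triangles) and within those numbered 2 (downward triangles), 1 array per genotype at each point. LHY spans -1.50 to -0.30 and CCL 1.00 to -0.22, and GI is above 0 at both numbers.

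In the authors' deposited table, whose log2 ratios set each xrn4-5 array against the Col-0 array of the same number, CCA1 and LHY both had -1.5 in pair 1, and -0.4 and -0.2 in pair 2. Their change p-values in the authors' deposited table were 0.99998 for both in pair 1, and 0.999 and 0.982 in pair 2. CCL had 1.2 and -0.2 in the authors' deposited table, and its change p-value was 2e-05 in pair 1 and 0.942 in pair 2. GI had 0.6 and 0.3 in the authors' deposited table, with change p-values of 0.00165 and 0.0120. In that table a change p-value near 0 goes with an increase and one near 1 with a decrease. PRR9 had 0.7 and -0.5 in the authors' deposited table, PRR7 had 0.7 and -0.4 and TOC1 had -0.1 and 0.2, so that with CCL 4 members had opposite signs in the pairs. For PRR9 the change p-value in the authors' deposited table was 0.00225 in pair 1 and 0.5 in pair 2. That of TOC1 was 0.5 and 0.204, and that of PRR7 was 3.5e-05 and 0.989. A value of 0.5 goes with neither an increase nor a decrease. On the log2 scale used here PRR9 differed by 0.54 in sample 1 and 0.02 in sample 2.

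Of 38 further clock components, 7 could be matched to a probe set, and 5 of these were bright enough to test. In either comparison 0 of the 5 were called, against 2.36% of all tested probe sets between numbers and 0.00733% between genotypes. At an unadjusted limma p under 0.05 the counts were 1 between numbers, against 13.8% of all tested, and 0 between genotypes, against 9.33%. With 5 genes these counts cannot be told from those shares. Between the numbers 2 of these 5 had higher and 3 lower estimates in sample 2, with a median log2 difference of -0.05, where that of all tested was -0.00085. Between the genotypes 4 were higher and 1 lower in xrn4-5, with a median of 0.26, beside 0.01 over all tested. FIO1, whose loss lengthens the period of the clock, had the widest estimate between numbers, a log2 difference of -0.50 (limma adjusted p = 0.209), followed by XCT, a regulator of clock pace, with 0.32. RVE5 and RVE6, of the MYB family of CCA1, had -0.19 and 0.18. TIC, a nuclear regulator of the clock, gave 960 and 863 in Col-0 samples 1 and 2 and 1079 and 1118 in xrn4-5 samples 1 and 2.

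COR27 and COR28, cold-induced evening genes that repress clock genes, were too dim on average to be tested. COR27 gave 39.1 and 321 in Col-0 samples 1 and 2 and 25.1 and 425 in xrn4-5 samples 1 and 2. COR28 gave 18.7 and 143 in Col-0, and 3.50 and 144 in xrn4-5, in the same order. Both were higher in both samples numbered 2, as the evening genes TOC1, LUX and ELF4 were. COR27 and COR28 were named after their values were seen, so this likeness is no independent evidence. In a limma fit that kept dim probe sets their log2 differences of sample 2 minus sample 1 were 2.66 and 2.05. That fit called 1 of all probe sets between numbers.

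Light signalling and photoperiod genes were thinly covered. HYH, a bZIP factor of light responses and the relative of HY5, was the 1 tested gene of 24 in the light signalling list. It gave 550 and 233 in Col-0 samples 1 and 2 and 249 and 116 in xrn4-5 samples 1 and 2, and was called lower in sample 2 (log2 difference -1.03, limma adjusted p = 0.0186). As with CCA1 and LHY, Col-0 sample 1 was its highest array. HYH was also lower in xrn4-5 than in Col-0 at both numbers, with a log2 difference of -0.95 that was not called (limma adjusted p = 0.596). CDF5, a repressor of the photoperiod pathway of flowering, had a log2 difference of -0.28 between numbers (limma adjusted p = 0.450), and FD, the bZIP partner of FT, was too dim to be tested. RCA, Rubisco activase and the 1 tested gene of the day-phased outputs, had -0.16 (limma adjusted p = 0.469). No gene of the evening-phased output list was named.

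The profiles nearest to the 3 clock genes of widest range were sought among 7295 tested probe sets with exactly 1 named gene, by the root mean square distance of centred log2 values over the 4 arrays. Nearest to ELF4 were AT1G56300 (distance 0.425), PORB (0.492) and AT4G16146 (0.548). PORB, a light-dependent protochlorophyllide oxidoreductase of chlorophyll synthesis, gave 630.2 and 2509 in Col-0 samples 1 and 2 and 660 and 2285 in xrn4-5 samples 1 and 2. Nearest to CCL were LTI30 (0.170), AT4G32340 (0.194) and AT5G62360 (0.200). Nearest to PRR5 were LTI30 again (0.116), AT5G62360 (0.141) and AT4G30660 (0.142). LTI30, a dehydrin induced by cold, gave 85.5 and 547 in Col-0, and 251 and 615 in xrn4-5, so that Col-0 sample 1 was lowest and xrn4-5 sample 1 next. All 7 of these genes were called higher in sample 2 in the fit over all tested probe sets, a property they share with the clock genes they were chosen to resemble.

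Markers of the tissue and measures of RNA quality were read in the same arrays. Of 10 inflorescence markers only AGL24 and SPT were named, and both were bright enough to be tested, with a summed intensity between 369.7 and 438 in the 4 arrays. The 3 tapetum markers summed to 9012.5 and 9040 in Col-0 samples 1 and 2, and to 7477 and 8235 in xrn4-5. The 4 late pollen markers summed to 1717 and 1339 in Col-0 samples 1 and 2, and to 1240.3 and 1272 in xrn4-5. The genotypes did not overlap in either sum. All 3 tested tapetum and all 3 tested pollen markers had lower estimates in xrn4-5, and both inflorescence markers had higher ones. Whether tissue make-up differed between the genotypes was not tested. The pollen sum was highest in Col-0 sample 1. BAN, a seed coat gene, gave 670 in Col-0 sample 1, 182 in Col-0 sample 2, 409 in xrn4-5 sample 1 and 319 in xrn4-5 sample 2 (log2 difference between numbers -1.02, limma adjusted p = 0.135). None of these marker genes that could be tested was called in either comparison, against 2.36% of all tested probe sets between numbers and 0.00733% between genotypes. AGL66, a pollen marker in that sum, was too dim to be tested, and none of the 4 root markers was named. The 5′ over 3′ signal of the actin control was -0.67 on the log2 scale in both Col-0 samples, and -0.48 and -0.52 in xrn4-5 samples 1 and 2. That of GAPDH was 0.0537 and 0.0945 in Col-0 samples 1 and 2, and 0.117 and 0.0927 in xrn4-5. For ubiquitin it was -0.178 and -0.222 in Col-0, and -0.225 and -0.146 in xrn4-5. The genotypes overlapped in GAPDH and ubiquitin but not in actin. The 25S ribosomal RNA control gave 763 in Col-0 sample 1 against 251 to 296 in the other 3 arrays. Col-0 sample 1 was also the array with the most extreme CCA1, LHY, PRR5 and CCL signals, and the part of this control or of BAN in those differences was not tested.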

How the data were processed

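The members and the gene lists were chosen with earlier results of these data known. Values are intensities, 1 for each probe set of an array, which the authors had scaled before they were deposited: the 2% trimmed mean is 500.04 in all 4 arrays. The submitters' processing notes name GCOS and give no version. Per the file headers, the authors' second table gives a log2 ratio and a change p-value for each pair of same-numbered arrays, and it entered no test here.

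No normalization was added, and log2(value + 32) was analysed. The 64 control probe sets were dropped, as were the 40% of the other 22746 with the lowest mean log2 value, which left 13647. The two-sided tests used limma 3.58.1 (lmFit, eBayes with a variance trend) under R 4.3.3. The genotype fit had 2 residual degrees of freedom and a prior of 3.73. The fit by sample number, with genotype as a second term, had 1 and 6.97. On simulated data the genotype fit kept its false calls near the threshold, and the fit by number exceeded it. The simulated errors were independent between arrays, whereas same-numbered arrays here had deviations with a correlation of 0.422. The simulation therefore cannot vouch for the false calls of the genotype fit in these data. Matplotlib 3.10.9 and Python 3.11.15 drew the figures. Genes were named from the platform annotation, through gene identifiers to TAIR10.1, and 8730 probe sets are not listed there. Where a gene had more than 1 probe set, the brightest stood for it. The rule named all 10 members, the tested genes of each list with the largest differences, up to 4 a list and comparison, and the 3 nearest profiles of 3 members. COR27, COR28, FD and AGL66, untested, were named after their values were seen. Promoter motifs were planned and not analysed here. Alternatives changed the pseudocount, filter, normalization, variance trend, prior, second term and arrays. With so few arrays, their number sets the precision.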

Additional observations from a re-analysis of the deposited data

Results flagged for a closer look

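In 3 clock genes a difference turned its direction between groups, with 1 array at each point. PRR7 had a log2 difference of sample 2 minus sample 1 of 0.023 in Col-0 and of -0.87 in xrn4-5. Its difference of xrn4-5 minus Col-0 was 0.47 in sample 1 and -0.42 in sample 2. For TOC1 the difference of xrn4-5 minus Col-0 was -0.56 in sample 1 and 0.13 in sample 2, and for CCL it was 1.00 and -0.22. These turns were not tested, because a fit of genotype, number and their interaction leaves 4 arrays no residual degree of freedom. Among all tested probe sets, 40.9% had opposite directions between sample numbers in the genotypes and 38.0% had opposite directions between genotypes in the sample numbers.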

How the results depend on the processing

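Causes of these moves were not tested, except that leaving out arrays or probe sets leaves fewer of them. Between the sample numbers, the 8 clock genes called became 0 with dim probe sets kept (1 of all probe sets), 4 of the 5 still tested with the lowest 60% out, 5 with quantile normalization, 5 with median centring, 5 without the variance trend (122 of all) and 1 without the genotype term (5 of all). With the genotype term, leaving out an array leaves no residual degree of freedom, so no count could be had. A fit without that term that leaves out 1 array, chosen after seeing the data, called 5 clock genes and 73 of all probe sets without xrn4-5 sample 1, 2 and 19 without Col-0 sample 1, and 0 and 0 without either sample 2, with a single array at that number taken to scatter as the others do. With the prior degrees of freedom of the genotype fit, also chosen after seeing the data, 0 clock genes and 1 of all probe sets were called. No clock gene turned its direction between numbers in any setting with a test.

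Between the genotypes, 0 clock genes were called in any setting. The 1 probe set called of all became 0 with dim probe sets kept and without the variance trend, and 0 to 10 with an array left out. With the replicate block, a fit whose prior is as poorly set as that of the fit by number, it became 131, and the clock gene nearest to the threshold was GI (limma adjusted p = 0.0777). The authors' ratios set equal numbers side by side, but no label says what a number marks, and arrays with equal numbers had deviations from their genotype means with a correlation of 0.422 over tested and 0.215 over all probe sets. PRR7 turned to -0.00017 with median centring. With an array left out, log2 differences of xrn4-5 minus Col-0 ran from -1.68 to 0.076 for CCA1, -1.84 to 0.038 for LHY, -0.69 to 1.25 for PRR9, -0.41 to 0.46 for PRR7, -0.55 to 1.59 for PRR5, -1.12 to 0.69 for TOC1, -0.89 to 0.0056 for LUX, -1.52 to 1.33 for ELF4 and -0.83 to 1.61 for CCL, while GI stayed above 0.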
